A study of Mus musculus with 8 samples.

Results

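Intracisternal A-particle (IAP) elements are endogenous retroviruses of the mouse genome, and small RNA from them was measured in mouse sperm. The members were every transposon row of the deposited count table whose name began with IAP, on the sense strand (the strand of the element) and on the antisense strand. They made 8714 of 783825 transposon rows, carried 25 names and stood for 7353 annotated copies, of which 1361 had a row on both strands. Of the names 9 ended in -int, which marks the internal part between the long terminal repeats (LTRs), and 16 did not and were counted with the LTRs, IAPLTR4_I among them. Rows were summed by name and strand, which gave 50 features.

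The 8 libraries were made from total RNA of sperm with Trizol and Qiaseq reagents, 4 from a control treatment and 4 from an ethanol treatment, in a series on sperm sampled after alcohol exposure had stopped. The labels give no strain, age, dose or route, and they do not say whether each sample came from its own animal. The p-values therefore measure only the spread between these samples, which may be technical.

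An IAP element has an LTR at each end, which holds its promoter, and an internal part that encodes the gag, pro and pol proteins of the particle. Some copies remain able to move in laboratory mice, and IAP insertions beside the agouti and Axin genes are textbook cases of DNA methylation that varies between genetically identical animals. In the male germ line IAP copies are silenced by DNA methylation, by histone H3 lysine 9 methylation that KRAB zinc finger proteins bring in, and by piRNAs. piRNAs are small RNAs bound by Piwi proteins. Those antisense to an element can guide these proteins to its transcripts, and many come from genomic piRNA clusters.

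The deposited totals ran from 4365887 to 4921827 counts in control and from 3481865 to 6975180 in ethanol libraries. IAP rows held 37320 counts over the 8 libraries, 27021 of them antisense and 10299 sense. Ethanol replicate 2 stood apart from the other libraries. Its summed level of 14 epididymal epithelium genes was 12587 CPM, against 1003 to 2887 CPM in the other ethanol libraries and 447 to 768 CPM in control. CPM here is counts at a common library size, scaled by TMM (trimmed mean of M values). The summed level of 12 genes of sperm and spermatids was 559 to 732 CPM in control and 226 to 618 CPM in ethanol, and that of 10 blood and immune genes was 29.6 to 57.9 and 8.68 to 33.6 CPM. For 7 Sertoli and Leydig cell genes the sums were 2.88 to 10.2 and 4.84 to 17.5 CPM, and for 8 genes of spermatocytes and spermatogonia 8.64 to 15.7 and 10.1 to 21.3 CPM. No marker gene was at 0 throughout. Epididymal markers did not overlap between the groups, and their part in the results below was not tested. A bulk library cannot tell fewer cells of a type from less RNA per cell.

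IAP small RNA was mostly antisense to the internal part. Internal antisense rows held 23174 counts, internal sense rows 8755, LTR antisense rows 3847 and LTR sense rows 1544. Levels are not divided by length, so they compare libraries and strands of the same annotation, not the output per base of an LTR and an internal part. Among antisense transposon counts of all kinds IAP took 1.26% to 1.56% in control and 1.16% to 1.44% in ethanol libraries. Among sense transposon counts it took 0.478% to 0.581% and 0.372% to 0.809%, the highest in ethanol replicate 2.

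Summed internal antisense level was 725, 475, 684 and 938 CPM in control replicates 1 to 4 and 603, 210, 1003 and 352 CPM in ethanol replicates 1 to 4. The means were 706 ± 190 and 542 ± 347 CPM (SD, n = 4 each), and the ethanol libraries lay both below and above every control. Internal sense level was 278, 218, 261 and 331 CPM in control and 216, 202, 274 and 126 CPM in ethanol, with means of 272 ± 47.0 and 205 ± 60.9 CPM. Again the groups overlapped, and only ethanol replicates 1, 2 and 4 were below every control.

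LTR antisense level averaged 119 ± 24.6 CPM in control and 88.9 ± 58.1 CPM in ethanol, and LTR sense level 48.6 ± 9.74 and 35.3 ± 8.85 CPM. The 4 sums were thus lower on average in ethanol, none without overlap. Without ethanol replicate 2 the log2 ratio of mean internal antisense levels was -0.11, and without ethanol replicate 3 it was -0.86.

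**Figure D1:**
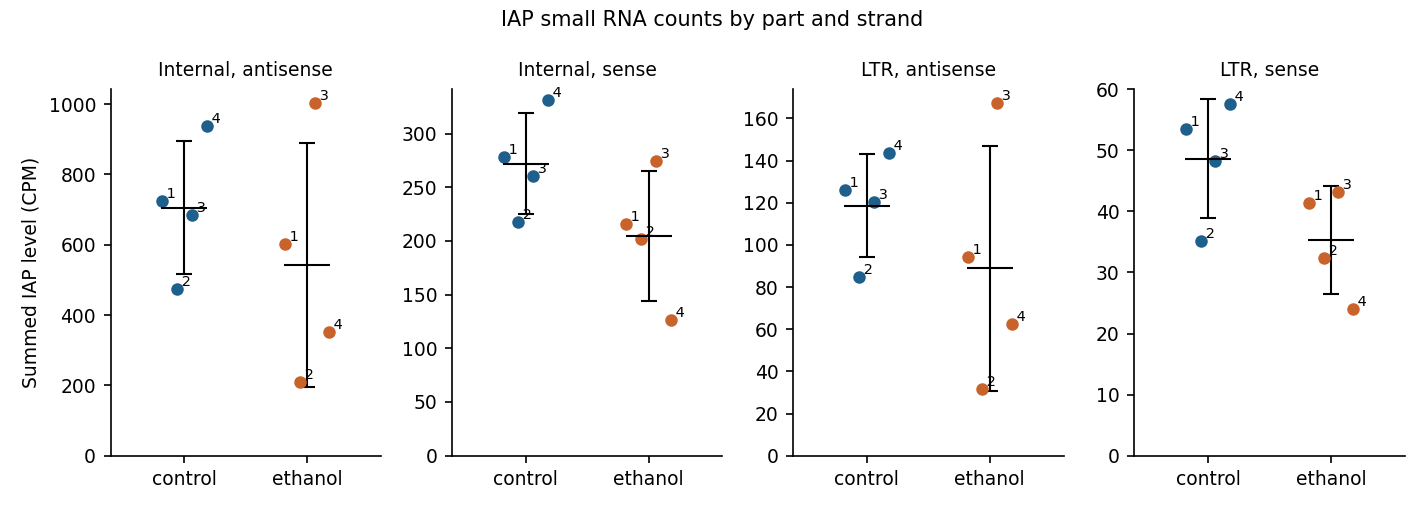
Summed IAP level in CPM (vertical axes, each from 0) for internal and LTR rows on each strand, by group, with numbered points for the replicates, a horizontal bar for the mean and whiskers for the SD of 4 libraries. Ethanol replicates spread more widely than controls on the antisense strand, from 210 to 1003 CPM for internal rows against 475 to 938 CPM.

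Every library had more antisense than sense IAP counts. The antisense to sense ratio over all IAP rows was 2.57, 2.21, 2.60 and 2.78 in control replicates 1 to 4. In ethanol replicates 1 to 4 it was 2.71, 1.03, 3.68 and 2.76. The group means of 2.54 ± 0.237 and 2.55 ± 1.11 (SD, n = 4 each) differed by far less than the spread between ethanol libraries, and ethanol replicate 2 alone was near 1.

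Over all transposons of the table the same ratio was 0.976, 0.831, 0.914 and 1.05 in control and 1.23, 0.722, 1.23 and 0.807 in ethanol. Each library thus had a higher ratio over IAP rows than over transposon rows as a whole. Internal rows and LTR rows did not separate in this respect, with control means of 2.56 ± 0.272 and 2.44 ± 0.0674. Their ethanol means were 2.57 ± 1.10 and 2.43 ± 1.19.

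**Figure D2:**
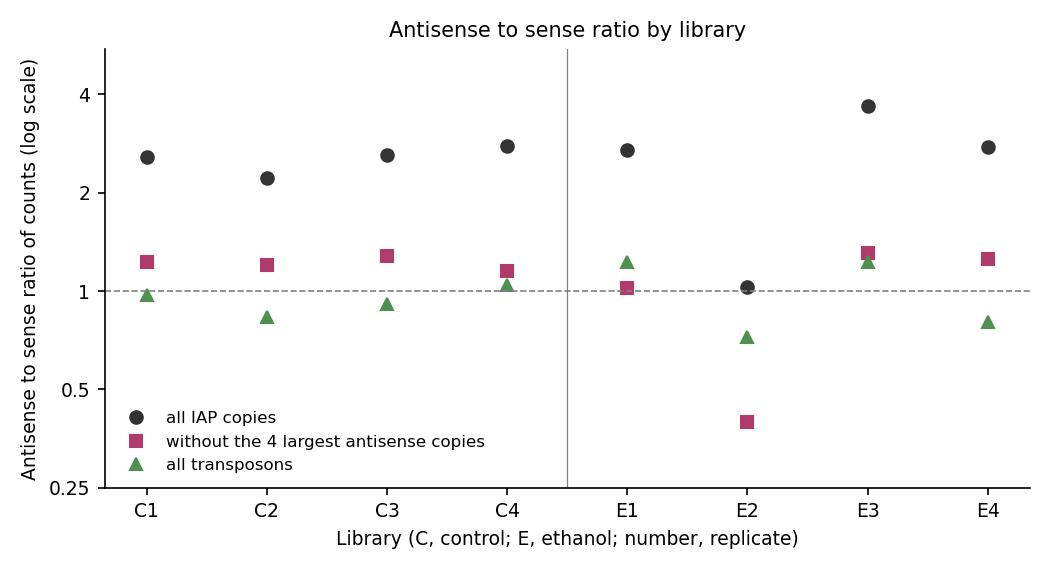
Antisense to sense ratio of counts (log vertical axis) in each of the 8 libraries for all IAP rows, for IAP rows without the 4 antisense copies of most counts, and for all transposon rows, with a dashed line at 1. All IAP rows lie between 1.03 and 3.68, and without the 4 copies between 0.399 and 1.31.

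By name, 3 internal parts carried most of the antisense signal. IAPLTR3-int, the internal part that goes with the IAPLTR3 repeat, led with a control mean of 291 ± 93.7 CPM. IAPEz-int, the internal part of most recent mouse IAP insertions, followed at 210 ± 54.2 CPM and IAPEY3-int at 156 ± 41.6 CPM. The fourth, IAP-d-int, was at 21.5 ± 3.97 CPM. Neighbours among the first 3 lay within their spread, and the step down to the fourth did not.

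Antisense IAPLTR3-int was at 297, 185, 269 and 412 CPM in control replicates and 279, 92.2, 487 and 143 CPM in ethanol replicates. Antisense IAPEz-int was at 200, 142, 226 and 272 CPM and at 138, 49.4, 238 and 87.0 CPM. Antisense IAPEY3-int was at 173, 103, 148 and 201 CPM and at 145, 49.2, 238 and 70.2 CPM. Each had its lowest value in ethanol replicate 2 and the groups overlapped in all 3. The log2 fold changes (ethanol against control, estimate ± SE) were -0.22 ± 0.52, -0.71 ± 0.49 and -0.31 ± 0.50, with edgeR adjusted p of 0.797, 0.316 and 0.686.

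On the sense strand the order was different, with IAPEz-int well ahead. Sense IAPEz-int was at 140, 120, 143 and 177 CPM in control and at 101, 144, 143 and 63.0 CPM in ethanol replicates. Sense IAPLTR3-int was at 64.7, 43.4, 57.7 and 88.7 CPM and at 43.3, 17.3, 76.4 and 28.4 CPM. Sense IAPEY3-int was at 30.1, 18.9, 20.2 and 28.1 CPM and at 23.2, 4.63, 21.9 and 10.03 CPM. Ethanol replicate 2 was the lowest library for the last pair but not for IAPEz-int, where ethanol replicate 4 was. Log2 fold changes were -0.37 ± 0.41, -0.62 ± 0.46 and -0.70 ± 0.46 (edgeR adjusted p 0.546, 0.353 and 0.290).

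Among LTRs, antisense counts were mostly IAPLTR2_Mm, one of the repeats found at the ends of IAPEz-int. It was at 62.1, 32.3, 57.7 and 75.4 CPM in control and 53.8, 18.9, 107 and 36.8 CPM in ethanol replicates, with an estimate of -0.07 ± 0.49 (edgeR adjusted p 0.935). Antisense IAPLTR3 was at 16.5, 10.9, 17.7 and 25.03 CPM and at 13.2, 3.79, 20.7 and 5.71 CPM, with -0.69 ± 0.48 (edgeR adjusted p 0.324). Antisense IAPLTR2b was at 10.5, 6.205, 12.0 and 15.02 CPM and at 6.02, 2.10, 7.92 and 3.11 CPM. The estimate was -1.18 ± 0.43 (edgeR adjusted p 0.0788), and ethanol replicates 1, 2 and 4 were below every control.

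Sense IAPLTR2_Mm was at 13.4, 6.98, 13.5 and 19.5 CPM in control and 9.25, 9.26, 15.3 and 6.40 CPM in ethanol replicates (log2 fold change -0.41 ± 0.39, edgeR adjusted p 0.476). Sense IAPLTR1_Mm, the LTR of the youngest IAP insertions, was at 1.31, 2.84, 8.74 and 1.39 CPM and at 4.99, 15.6, 3.96 and 3.63 CPM. The estimate of 0.95 ± 0.61 (edgeR adjusted p 0.286) was the highest of the IAP features tested, and single libraries of each group held the top values. Sense IAPLTR2b was at 7.86, 4.91, 4.49 and 5.01 CPM and at 2.35, 0.842, 3.77 and 2.08 CPM. Here all ethanol libraries were below all controls, with an estimate of -1.28 ± 0.43 that missed the threshold of 0.05 (edgeR adjusted p 0.0573).

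Of the 50 features 26 had enough counts to be tested and 24, of 1 to 108 counts in all, did not. None of the 26 passed the edgeR quasi-likelihood test across 13513 features, while 4 had an unadjusted p under 0.05. DESeq2's Wald test called 3, against 99 of all 1076 transposon features, and limma-voom 0, against 2. Among all transposon features tested, 1.91% of 524 sense and 0.906% of 552 antisense features were called, so a count of 0 among 26 is near the background. The 3 that DESeq2 called were all LTRs and all lower in ethanol: sense IAPLTR2b, antisense IAPLTR2b and sense IAPLTR1a_Mm.

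Sense IAPLTR1a_Mm was at 3.404, 3.88, 3.75 and 6.40 CPM in control and at 2.35, 0.210, 1.89 and 1.90 CPM in ethanol replicates. It and sense IAPLTR2b were the 2 of the 26 tested features whose groups did not overlap, both with ethanol below. Its log2 fold change was -1.40 ± 0.48 (edgeR adjusted p 0.0608). Sense IAPLTR1a_Mm was at the filter on low counts in 4 control libraries and 1 ethanol library, and sense IAPLTR2b in 4 and 2. Both thus passed the filter through the controls, the higher group. Among all sense transposon features tested 12.0% did not overlap with ethanol below, and among antisense ones 10.1%, so 2 of 26 is no more than the background.

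Estimates were negative for 23 of the 26 IAP features, with a median log2 fold change of -0.59. The same held for transposons in general, of which 94.5% of sense and 94.9% of antisense features were negative, with a median of -0.50 over both strands. By group of IAP features, the median was -0.37 for internal sense, -0.53 for internal antisense, -0.79 for LTR sense and -0.77 for LTR antisense. IAPEY4_I-int (0.50 ± 0.46) and IAPLTR1_Mm on the sense strand and IAP-d-int (0.10 ± 0.40) on the antisense strand were the 3 with positive estimates. With transposon features alone in the fit 16 of 28 IAP estimates were negative with a median of -0.15, against a median of 0.06 over all transposon features. With library totals in place of TMM 19 of 26 were negative with a median of -0.38, while the median of all features moved from -0.01 to 0.25.

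The test also depended on which ethanol libraries entered it. Without ethanol replicate 3, the library with the most antisense IAP counts, edgeR called 8 of 29 IAP features, all of them lower in ethanol. Calls rose over the whole table as well, from 15 of 1076 to 83 of 1134 transposon features (7.32%) and from 1837 of 13513 to 3568 of 14826 features, and the median over transposon features was -0.82. Antisense IAPEY_LTR and IAPA_MM-int, untested with all libraries, reached the filter on low counts there through control libraries alone and had to differ. The other 6 were antisense IAPLTR2a, IAPLTR2b and IAPLTR3 and sense IAPLTR2b, IAPLTR3 and IAPLTR1a_Mm, all LTRs. Sense IAPLTR2b, IAPLTR3 and IAPLTR1a_Mm were each at the filter in 1 ethanol library, and antisense IAPLTR2a in 2. These also passed it through the controls, so their calls are not free of the filter. Estimates of the 6 ran from -2.10 for antisense IAPLTR2a to -1.29 for antisense IAPLTR3 (edgeR adjusted p 0.00587 to 0.0448). Without ethanol replicate 1 or ethanol replicate 2 the count was 2, against 50 of 1106 and 21 of 1162 transposon features, and without any single control or ethanol replicate 4 it was 0.

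**Figure D3:**
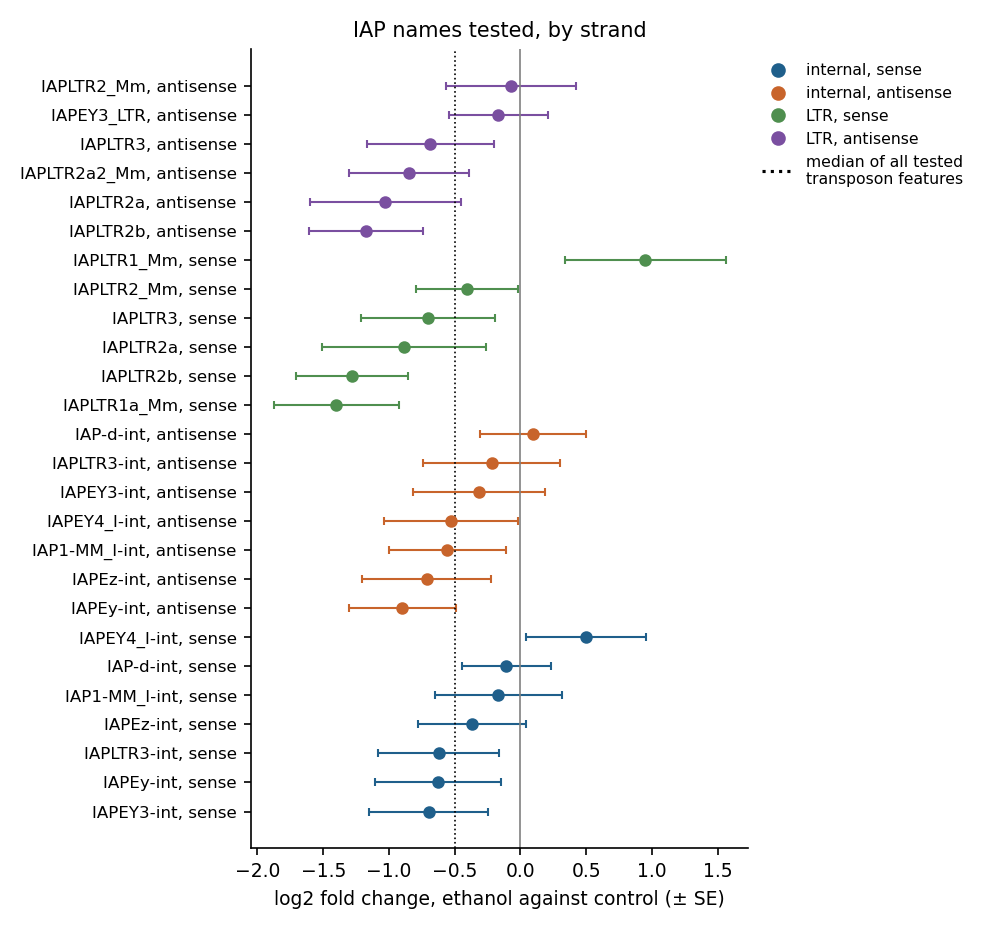
Log2 fold change of ethanol against control (horizontal axis, points with whiskers of ± 1 SE) for the 26 IAP features tested, colored by part and strand, with a dotted line at the median of all transposon features. Of the points 23 lie left of 0, with LTR features reaching from -1.40 to 0.95.

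The ratio of antisense to sense counts within a library needs no scaling between libraries, and it was tested for each name with at least 80 counts on each strand. Over 496 such names the median log2 ratio in control was 0.29, and over the 12 IAP names 1.17. IAPEY3-int (2.66), IAPLTR3-int (2.18), IAPLTR2_Mm (2.11) and IAPLTR3 (2.01) were the most antisense, with only 38, 51, 54 and 59 of the 496 names above them. IAPEz-int leaned to antisense less strongly, at 0.51, with 206 of the 496 names above it. IAPEy-int (-0.46) and IAPEY4_I-int (-0.79) leaned to sense.

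IAPLTR3-int had log2 ratios of 2.20, 2.09, 2.22 and 2.21 in control and 2.68, 2.41, 2.67 and 2.33 in ethanol replicates. Every ethanol library was above every control, and the difference of 0.34 ± 0.14 did not pass the test (limma adjusted p 0.439). It was the 1 IAP name of 12 with an unadjusted p under 0.05. Without overlap and with ethanol above stood 4.64% of all 496 names. IAPEY3-int moved from 2.66 ± 0.21 to 3.06 ± 0.41 (limma adjusted p 0.529) with overlap.

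For IAPEz-int the log2 ratio was 0.51, 0.24, 0.66 and 0.62 in control and 0.46, -1.54, 0.73 and 0.47 in ethanol replicates. Ethanol replicate 2 was the only library with more sense than antisense counts for this name. The difference was -0.48 ± 0.43 (limma adjusted p 0.675), and 0.04 without that library. No IAP name was called, against 0.403% of all names.

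Antisense counts were concentrated in a handful of copies, sense counts were not. The 3 internal antisense copies with the most counts held 59.4% of that group, and the 2 leading LTR antisense copies 53.9%. To reach 50% on the sense strand took 118 internal copies or 113 LTR copies. The single leading copy held 30.7% of internal antisense, 47.1% of LTR antisense, 2.76% of internal sense and 2.66% of LTR sense counts. Most rows with counts had few: under 10 counts were found in 1545 of 1672 internal antisense, 1733 of 1895 internal sense, 673 of 692 LTR antisense and 661 of 682 LTR sense rows.

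**Figure D4:**
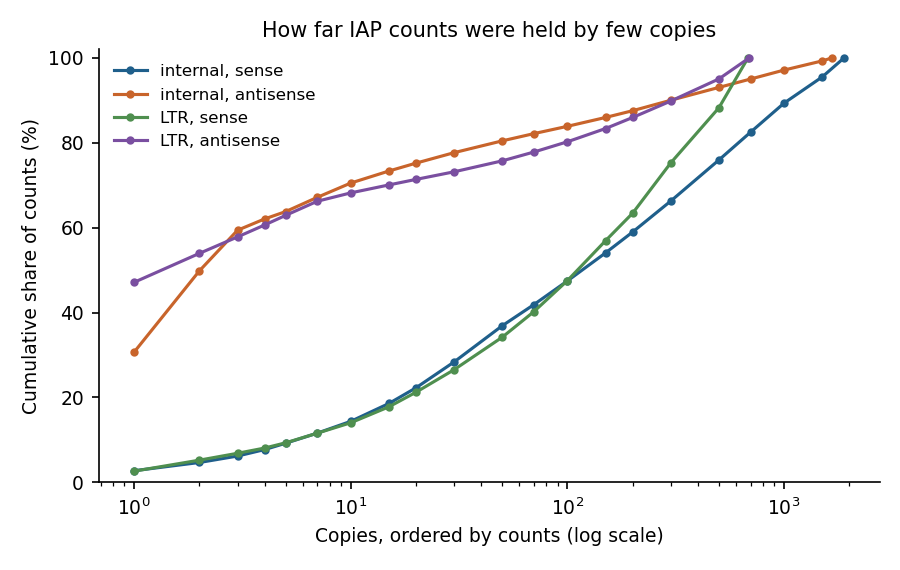
Cumulative share of counts in percent (vertical axis) against the number of copies, ordered from the most counts (log horizontal axis), for each part and strand. At 10 copies the antisense lines are at 70.5% (internal) and 68.2% (LTR), and the sense lines at 14.4% and 14.1%.

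Copy 105 of IAPLTR3-int had 766, 467, 715 and 1043 antisense counts in control and 1382, 312, 1820 and 609 in ethanol replicates, 7114 in all, against 30 counts on its own sense strand. Copy 231 of IAPEY3-int had 461, 288, 486 and 636 and then 846, 221, 1138 and 354 antisense counts (4430 in all, 60 sense). These 2 copies made 70.1% and 84.2% of all antisense counts of their names, so the name-level values above are largely theirs. Copy 150 of IAPLTR3-int had 258, 156, 275 and 362 and then 395, 91, 505 and 176 antisense counts (2218 in all, 18 sense). Copy 518 of IAPLTR2_Mm had 211, 83, 160 and 242 and then 333, 80, 536 and 168 (1813 in all, 10 sense), which was 86.4% of its name. Together the 4 copies held 15575 of 27021 antisense IAP counts, or 57.6%, and from 45.9% to 64.5% in single libraries. This set of 4 was chosen after its counts were seen.

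Taken as a sum, the 4 copies moved closely with the piRNA clusters of the same table. Their counts made 0.240%, 0.234%, 0.271% and 0.278% of the piRNA cluster counts in control replicates 1 to 4 and 0.252%, 0.253%, 0.248% and 0.231% in ethanol replicates. The widest 95% Wilson interval, that of ethanol replicate 2, was 0.235% to 0.272%, and such intervals cover counting error only. The highest share was 1.20 times the lowest, while the CPM of the piRNA clusters themselves varied 5.18-fold, from 58618 in ethanol replicate 2 to 303918 in ethanol replicate 3. Control and ethanol overlapped in this share (0.255% ± 0.0222 and 0.246% ± 0.0100, SD, n = 4 each).

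This was not confined to IAP. Of the 183 antisense copies of any transposon with at least 1813 counts, the median ratio of highest to lowest share was 1.30. The 4 IAP copies had 1.18 (copy 105), 1.28 (copy 231), 1.46 (copy 150) and 1.71 (copy 518). Of the 183 copies, 25, 80, 142 and 158 had a smaller ratio than these, so the ratios of copies 150 and 518 were wider than most. The cut was the total of copy 518, so no other copy had fewer counts. A ratio of highest to lowest share is noisier at fewer counts, and this was not allowed for. Whether any of them lies inside an annotated piRNA cluster was not tested, since the table names copies without a genome build.

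All other antisense IAP counts behaved differently from the 4 copies. They made 0.220%, 0.275%, 0.262% and 0.196% of piRNA cluster counts in control and 0.153%, 0.159%, 0.137% and 0.193% in ethanol replicates. Every ethanol library was below every control, by a narrow margin for ethanol replicate 4 (means 0.238% ± 0.0370 and 0.160% ± 0.0237). As a share of antisense transposon counts the rest of the internal rows averaged 0.545% ± 0.0475 and 0.417% ± 0.0454 and the rest of the LTR rows 0.128% ± 0.0254 and 0.0837% ± 0.0134, both without overlap. As CPM the groups overlapped in both. With the largest copy of each name left out in place of the 4 copies, the internal share still did not overlap but the LTR share did. These sums were chosen after their values were seen and carry no test. Other transposons were not summed without their largest antisense copies, so whether this was particular to IAP was not tested.

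Sense IAP counts relative to piRNA clusters were 0.179%, 0.230%, 0.205% and 0.170% in control and 0.149%, 0.400%, 0.104% and 0.154% in ethanol replicates. Ethanol replicate 2, with the fewest piRNA cluster counts, was the highest, and the other ethanol libraries were below every control. Without the 4 copies the antisense to sense ratio was 1.23, 1.20, 1.28 and 1.15 in control and 1.02, 0.399, 1.31 and 1.26 in ethanol replicates. Leaving out antisense copies alone had to lower this ratio in every library. With the largest copy of each name and strand left out instead, it was 1.43, 1.37, 1.39 and 1.48 in control replicates. In ethanol replicates it was then 1.22, 0.450, 1.53 and 1.22. Sense counts led in ethanol replicate 2 either way.

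**Figure D5:**
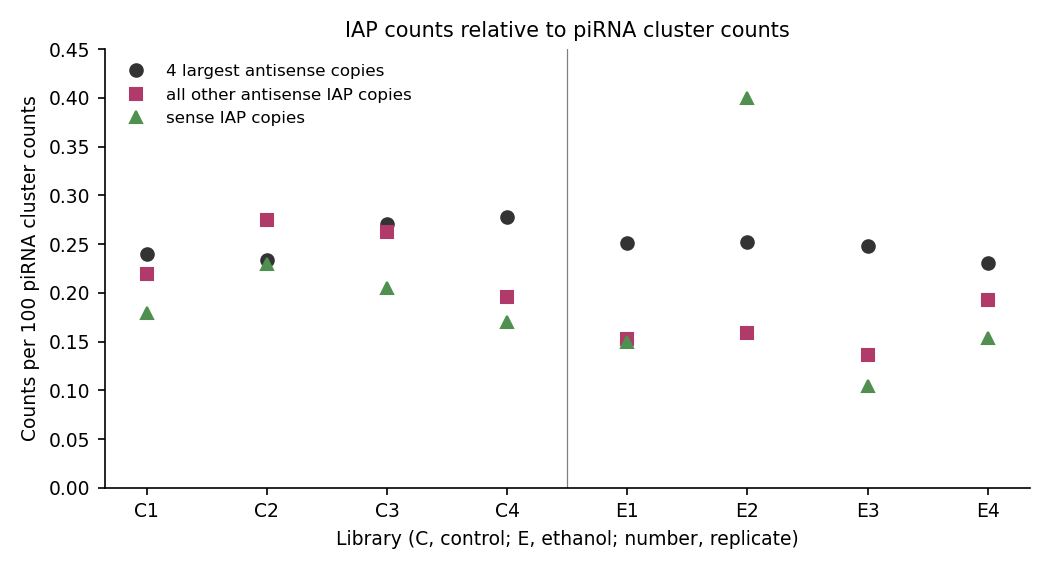
Counts per 100 piRNA cluster counts (vertical axis, from 0) in each library for the 4 leading antisense IAP copies, all other antisense IAP copies and all sense IAP copies. The 4 copies stay between 0.231 and 0.278, while the other antisense copies run from 0.137 to 0.275 and lie lower in each ethanol library than in any control.

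Kept as single copies, 31 IAP rows had enough counts for the edgeR test, 19 antisense and 12 sense. Estimates were negative for 26 and the median log2 fold change was -0.72. The 4 leading antisense copies had estimates of -0.15 ± 0.53 for copy 105, -0.15 ± 0.52 for copy 231, -0.46 ± 0.51 for copy 150 and 0.09 ± 0.55 for copy 518. The next LTR antisense copies, IAPLTR3 copies 56 and 22, had 262 and 149 counts in all.

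One IAP copy was called. Sense copy 4069 of IAPEz-int had 35, 39, 10 and 22 counts in control and 11, 0, 10 and 6 in ethanol replicates. In CPM this was 6.97 ± 3.43 and 1.13 ± 0.835 (SD, n = 4 each), with every ethanol library below every control. It fell by 2.57 ± 0.63 on the log2 scale (edgeR adjusted p 0.0455, 1.90% of 1472 transposon copies called). It was the 1 IAP copy of 31 without any ethanol library at the filter on low counts. It reached the filter through control libraries alone, so it had to differ, and the call supports nothing. The call was lost without any of the 4 control libraries (edgeR adjusted p 0.101 to 0.157) and without ethanol replicate 4 (0.0684), the direction was not. Without ethanol replicate 3, 10 IAP copies were called, all lower in ethanol, while transposon copies as a whole went from 28 called of 1472 to 138 of 1530. Of the 10, 6 reached the filter through control libraries alone, and 4 of these 6 had the same counts as each other in every library. Among the others, antisense IAPLTR3 copy 22 and IAPLTR3-int copy 273 were at the filter in 1 ethanol library each, and IAPLTR3 copy 56 in 2. Without ethanol replicate 1 or 2 the count was 2, each time of copies that reached the filter through 1 group alone, against 32 of 1567 and 31 of 1655 transposon copies.

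The 2 internal sense copies with the most counts were uneven between libraries. Copy 251 of IAPLTR3-int had 40, 29, 0 and 90 counts in control and 8, 0, 60 and 15 in ethanol replicates. Copy 228 of the same name had 29, 1, 0 and 11 and then 0, 0, 125 and 3. Both were thus absent from at least 1 library of each group and abundant in another. Leading LTR sense copies were smaller still, with 41 counts in all for copy 139 of IAPLTR3, 40 for copy 999 of IAPLTR2b and 25 for copy 960 of IAPLTR2_Mm.

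At least 20 counts were reached by 136 IAP rows, and 2 of them had ethanol above control without overlap and 3 had it below (1.47% and 2.21%). Over the 4180 transposon rows of that size it was 1.20% and 3.76%. Sense copy 282 of IAPLTR3-int, singled out after its values were seen, had 0 counts in all 4 control libraries and 37, 4, 17 and 22 in ethanol replicates. Pooled over the libraries of a group, its ethanol level was 18.0 times a floor of 3 counts over the control group. That floor covers counting error only, not the spread between libraries. Sense copy 706 of IAPEz-int had 0 in each control and 3, 31, 3 and 1 in ethanol replicates. Of all 4180 rows 5 were 0 in every control and above 0 in every ethanol library, and 2 of the 5 were these. Neither passed the filter on low counts with all libraries, so neither has a test.

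Many IAP copies are nearly identical, and the rows showed it. Of the 136 rows of at least 20 counts 14 had the same count as another row of their strand in all 8 libraries, in 5 sets of up to 4 rows, all of IAPEz-int. In one set copies 4300, 4430, 4689 and 4695 each had 10, 9, 13 and 18 sense counts in control and 0, 0, 19 and 4 in ethanol replicates. The same reads may therefore be counted in several rows. No source used here says how reads that align to several copies were assigned, so a copy's count describes its row and may not come from that insertion alone.

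Transcripts of the silencing machinery were read from fragments in the same libraries. Of 24 genes for Piwi proteins and piRNA biogenesis 9 were tested, and none passed the test (median log2 fold change 0.04). Piwil2, a Piwi protein of the male germ line, had 75, 45, 61 and 98 counts in control and 108, 26, 141 and 65 in ethanol replicates, with -0.31 ± 0.45 (edgeR adjusted p 0.648). Tdrd6, a Tudor protein of the germ granule, had -0.22 ± 0.53 (edgeR adjusted p 0.796). Of 10 genes for DNA methylation 4 were tested and none was called (median 0.37), with Dnmt3a, a de novo methyltransferase, at 0.36 ± 0.39 and Tet3, an enzyme that oxidizes methylcytosine, at 0.38 ± 0.42.

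Of 25 genes for histone and KRAB zinc finger silencing 17 were tested, 4 rose and none fell (median 1.02). Cbx1, a heterochromatin protein that binds methylated lysine 9, had 5, 4, 6 and 8 counts in control and 31, 43, 17 and 21 in ethanol replicates. It rose by 1.73 ± 0.45 (edgeR adjusted p 0.0303), with every ethanol library above every control. All controls were below the filter on low counts, which Cbx1 reached through ethanol libraries alone. It therefore had to differ, and its call supports nothing. H3f3b and H3f3a, which both encode histone H3.3, rose by 1.81 ± 0.48 and 1.44 ± 0.43 (edgeR adjusted p 0.0311 and 0.0422), and Atrx, a remodeler that deposits H3.3 at repeats, by 1.65 ± 0.48 (edgeR adjusted p 0.0374). H3f3a is named in addition to the rule. Of mRNA exon features overall 23.8% rose, with a median of 0.89, so 4 of 17 is near the background. No pathway gene was called without any single control library, where only 3, 3, 7 and 10 features of the whole table were called. Without ethanol replicate 2, the library with the highest epididymal markers, 1 was called, and 13.9% of mRNA exon features rose. Without ethanol replicate 3 the count was 10, and 36.5% of mRNA exon features rose.

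Among 10 genes that restrict retroviruses 5 were tested and none was called, with a median log2 fold change of 1.59. Zc3hav1, an antiviral protein that binds viral RNA, had 7, 14, 20 and 20 counts in control and 63, 121, 19 and 60 in ethanol replicates, with 1.59 ± 0.53 (edgeR adjusted p 0.0570). Apobec3, a cytidine deaminase that acts on retroviral DNA, had 4, 18, 20 and 10 and then 41, 115, 16 and 52 counts, with 1.63 ± 0.59 (edgeR adjusted p 0.0763). In both, ethanol replicate 3 lay within the control range and ethanol replicate 2 was the highest.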

How the data were processed

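Counts were deposited by the authors in 1 table, with a row for each transposon copy and strand, exon, miRNA or piRNA cluster, per the file headers, and a column for each library. The aligner, the counting rule, the use of molecular identifiers, the treatment of multiple alignments and the genome build are not given in the sources used here. No coordinates or sequences are therefore printed. Rows were summed by name and type into 45413 features of 15 classes, and each of 172 piRNA clusters was represented by its largest transcript. The fit used edgeR 4.0.16 in R 4.3.3 (TMM, filterByExpr with a minimum count of 10, robust quasi-likelihood on group alone, adjusted by Benjamini-Hochberg over 13513 features, threshold 0.05). It called 1837 features (13.6%), 1601 higher and 236 lower in ethanol. TMM-scaled library sizes of 3595186 to 6807277 counts put the floor of 3 counts at 0.441 to 0.834 CPM. A second edgeR fit kept transposon copies apart (13909 features tested, 7.92% called). Antisense to sense ratios were tested with limma 3.58.1 on log2((antisense + 0.5)/(sense + 0.5)). The SE of an edgeR log2 fold change is its size divided by the square root of F.

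Named were the 3 IAP names with the highest mean CPM and the 3 copies with the most counts in each part and strand, any feature past the threshold, and pathway genes by p (up to 3 of a list) or otherwise the 2 of a list with the highest mean CPM. The members and lists were chosen with earlier results of these data known. Of the pathway lists Spocd1, Dnmt3c and Gm15446 were not matched in the table. The epididymal, sperm, spermatocyte, Sertoli and Leydig, and blood marker lists were matched whole. Pairs of libraries within a group differed by more than sampling noise (chi-square 11.7 to 189 per degree of freedom), and all were kept. Correlations of same-numbered deviations were 0.34, 0.21, -0.13 and -0.02, within the -0.40 to 0.38 of differently numbered libraries. They do not show that the numbers pair the libraries, and so few values cannot exclude it. Both fits were tested on simulated data. Alternatives were other scalings (DESeq2 1.42.0 size factors, totals), tests, filters and pseudocounts, the replicate number as a block, libraries left out, and ethanol libraries 1 and 2 or 3 and 4 alone, whose sample codes differ in style. Leaving out the 4 leading copies and shares of piRNA cluster or transposon counts were added after seeing the data.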

Additional observations from a re-analysis of the deposited data

Results flagged for a closer look

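In 3 of 62 groups of 4 values examined, 1 library lay far from the other 3, and chance flags about 1 group in 20. Sense IAPLTR1_Mm was at 15.6 CPM in ethanol replicate 2, against 3.63 to 4.99 CPM in the other ethanol libraries. Without that library its log2 fold change was 0.14, against 0.95 over all libraries. Sense IAPLTR2b was at 7.86 CPM in control replicate 1, against 4.49 to 5.01 CPM in the other controls, and its groups did not overlap with or without that library. Sense copy 228 of IAPLTR3-int was at 23.6 CPM in ethanol replicate 3, against 0 to 0.519 CPM in the other ethanol libraries.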

How the results depend on the processing

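The count of IAP features called (0 of 26) became 3 with DESeq2's Wald test, against 99 of 1076 transposon features. With no filter on low counts it was 2 of 50, against 19 of 2185. Ethanol replicates 1 and 2 alone gave 6 of 33, against 27 of 1212. With 1 library left out it was 0 to 8. It was 0 under every other alternative run but the block. The count of copies called (1 of 31) was 13 of 4941 with no filter, against 146 of 634126 transposon copies. It was 13 of 50 with ethanol replicates 1 and 2 alone, against 124 of 1739, and 0 with 3 and 4 alone. With 1 library left out it was 0 to 10. The 4 pathway genes called became 2 with DESeq2 size factors, where 14.8% of mRNA exon features rose. Ethanol replicates 1 and 2 alone gave 11, where 33% rose, and 3 and 4 alone gave 0, where 7.65% rose. With 1 library left out the count was 0 to 10. Replicate numbers were not shown to pair the libraries. As a replicate block they gave 5 IAP features, against 86 of 1076 transposon features, and 2 copies, against 66 of 1472. They also gave 9 pathway genes, where 37.1% of mRNA exon features rose, and turned copy 518 of IAPLTR2_Mm to -0.12. Over the whole table the block called 3291 of 13513 features, against 1837 without it. No ratio was called under any alternative run.

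Among uncalled log2 fold changes, signs turned as follows. With transposon features alone, antisense IAPLTR2_Mm was 0.40, antisense IAPLTR3-int 0.23, antisense IAPEY3-int 0.15, sense IAPLTR2_Mm 0.25 and sense IAPEz-int 0.50. With library totals, antisense IAPLTR2_Mm was 0.094, copy 105 0.034 and copy 231 0.033. With no filter, copy 105 was 0.089 and copy 231 0.080. With ethanol replicates 3 and 4 alone, antisense IAPLTR2_Mm was 0.28, antisense IAPLTR3-int 0.052, copy 105 0.0093, and the ratio changes of IAPEz-int and IAPLTR2b 0.093 and -0.11. With ethanol replicates 1 and 2 alone, copy 518 was -0.60, Dnmt3a -0.040 and the ratio change of IAPLTR2_Mm -0.33. With 1 library left out, antisense IAPLTR2_Mm ran from -0.73 to 0.14, copy 518 from -0.63 to 0.19, Tet3 from -0.019 to 0.55 and Tdrd6 from -0.92 to 0.21. Ratio changes then ran from -0.71 to 0.045 for IAPEz-int, from -0.086 to 0.50 for IAPLTR2_Mm, from -0.077 to 0.33 for IAPLTR2b and from -0.17 to 0.49 for IAPLTR3. As a share of transposon or of piRNA cluster counts, the log2 ratio of group means was 0.10 and 0.050 for internal sense and 0.056 and 0.0022 for LTR sense. The cause of these changes was not tested. The depth left 24 features untested, and most copies had under 10 counts, where differences between groups were not detectable.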

Other observations

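Some copies and names outside the naming rule stood out after their values were seen. Sense copy 802 of IAPEz-int had 0, 8, 1 and 0 counts in control and 0, 114, 0 and 0 in ethanol replicates, which was 16.7% of the sense IAPEz-int counts of ethanol replicate 2. Antisense copy 183 of IAP-d-int had 35, 79, 66 and 50 counts in control and 49, 40, 86 and 211 in ethanol replicates, so that ethanol replicate 4, not replicate 3, was its highest library. It held 72.0% of the antisense counts of its name.

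Antisense IAPEY_LTR, with 88 counts too few for the test, was at 3.67, 6.46, 1.998 and 3.62 CPM in control and 1.62, 0.210, 1.13 and 1.73 CPM in ethanol replicates, without overlap. Antisense IAPA_MM-int, with 108 counts, was at 5.76, 1.29, 4.24 and 8.34 CPM and at 1.32, 0.631, 2.26 and 1.73 CPM, with overlap. Both were called with no filter on low counts and in some fits with 1 ethanol library left out, where they reached the filter through control libraries alone, so those calls are no support.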
